A study of Mus musculus with 5 samples.

Results

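Integrins and laminins, the receptors and ligands by which an epithelial cell holds on to its basement membrane, were followed in cultured mouse colon epithelium. All gene symbols of the integrin α and β chains and of the laminin α, β and γ chains were taken from the count and transcript tables by their names, a rule that uses no values but was set with earlier results of these data known, which gave 37 genes of 32793, of which 36 (26 integrins and 10 laminins) are described here. Colon spheroids, three-dimensional cultures, had been grown from mice whose mixed strain background was for the most part C57Bl6 and otherwise FVB. The mutant group (2 libraries, titled RA) expressed the alleles Notch1DD and Notch2DD, whose products are deficient in Notch dimerization, and is called NDD. The control group (3 libraries) was wild type (WT). The labels give no age, and do not say whether the libraries of a group came from separate mice or cultures, so p-values measure only the spread between these libraries, which may be technical. The mutation changes the Notch protein and not necessarily its transcript, so the RNA level is no check of the genotype.

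Laminins are trimers of an α, a β and a γ chain, named by the numbers of their chains. A laminin with the chains Lama3 and Lamb3 anchors epithelia through the hemidesmosome, and laminins 511 and 521 form the sheet of most epithelial basement membranes. Integrins are receptors of an α and a β chain that span the membrane. The pairs α6β4 and α3β1 bind laminins, α1β1 and α2β1 bind collagens, and α5β1 and the αv pairs bind the RGD motif of fibronectin and related ligands. In the intestine laminin chains are made by the epithelium and by the mesenchyme below it. Whether adhesion genes differ when Notch dimers cannot form is the comparison described here.

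The libraries held between 19192389 and 23064000 estimated counts each, and 13501 genes passed the filter on low counts. The 2 NDD libraries did not group together. Over all genes tested, NDD replicate 1 had a Spearman correlation of 0.966 with NDD replicate 2 and of 0.985, 0.982 and 0.973 with WT replicates 1, 2 and 3, while the WT libraries correlated with each other at 0.984 to 0.987. NDD replicate 2 correlated with WT replicates 1, 2 and 3 at 0.961, 0.966 and 0.939, so every pair that held it lay below every pair without it. Over the 20 members tested, the 2 NDD libraries were the least alike of the 10 pairs, at 0.923. These correlations are across genes, which are not independent replicates. The 10 epithelial markers summed to between 10563 and 12039 CPM (counts per 1000000 counts) in every library, with overlapping groups. Of 37 markers of other cell types, summed by type, fibroblast markers reached 9.83 to 26.1 CPM in NDD and 4.60 to 9.22 CPM in WT. Most of that sum was Pdgfrb, while Dcn, Lum, Pdgfra, Thy1 and Postn had at most 3 counts in every library. The immune markers summed to 2.41 to 3.75 CPM in NDD and 4.27 to 5.68 CPM in WT, with 8 of 10 at no more than 3 counts in every library. The endothelial, smooth muscle, glial and platelet sums reached at most 7.28 CPM in any library. Their part in the differences described here was not tested. In a bulk library, fewer cells of a type and less RNA per cell cannot be told apart.

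None of the integrin and laminin genes described here was called as different between the genotypes by edgeR. DESeq2 called 1 of them, the laminin γ1 chain Lamc1, which was lower in NDD. In edgeR's quasi-likelihood test, 0 of the 20 genes with enough counts to be tested had an adjusted p under 0.05, where 0.0889% of all 13501 genes did (12 genes, of which 3, or 0.0222% of all genes, were lower in NDD). At an unadjusted p under 0.05 there was 1 of the 20, Lamc1, against 11.2% across the 13501 genes. DESeq2 called 2.64% of all genes (357), of which 138, or 1.02%, were lower, and its other members at an unadjusted p under 0.05 were Itga7 and Itgb6, against 12.9% of all genes. On the CPM scale the NDD and WT libraries did not overlap in 5 of the 20 genes (Itga5 and Itgb5 higher, Itga6, Itgb6 and Lamc1 lower in NDD), against 32% of all genes (15.8% higher and 16.2% lower). On the TPM scale, transcripts per 1000000 with each gene divided by its length, there were 3 such genes, against 30% of all genes. No member was called with the remaining settings that use all libraries, where 0.302% (no filter on low counts), 0.178% (limma-voom), 0.13% (limma on TPM), 0.0468% (limma on TPM, no filter) and 0.244% (replicate block) of the genes tested were. With a library left out the share of all genes called was 8.62% without NDD replicate 1, 0.0866% without NDD replicate 2, 0% without WT replicate 1, 0.0374% without WT replicate 2 and 0.0225% without WT replicate 3, and again no member was. At an unadjusted p under 0.05 there were 3 of 21 members without NDD replicate 1, against 30.1% of all genes tested, and 5 of 20 without NDD replicate 2, against 7.34%. A log2 fold change beyond 1 in either direction was estimated for 2 of the 20 (Itga7 and Itgb8), against 8.02% of all genes. The median log2 fold change of NDD over WT was -0.08 for the 15 tested integrins and -0.13 for the 5 tested laminins, and -0.0047 for all genes tested. The 2 NDD libraries themselves differed by over 1 on the log2 CPM scale in 6 of the 20 genes (Itga1, Itga7, Itga8, Itgam, Itgb8 and Lama5), against 14.1% of all genes.

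**Figure D1:**
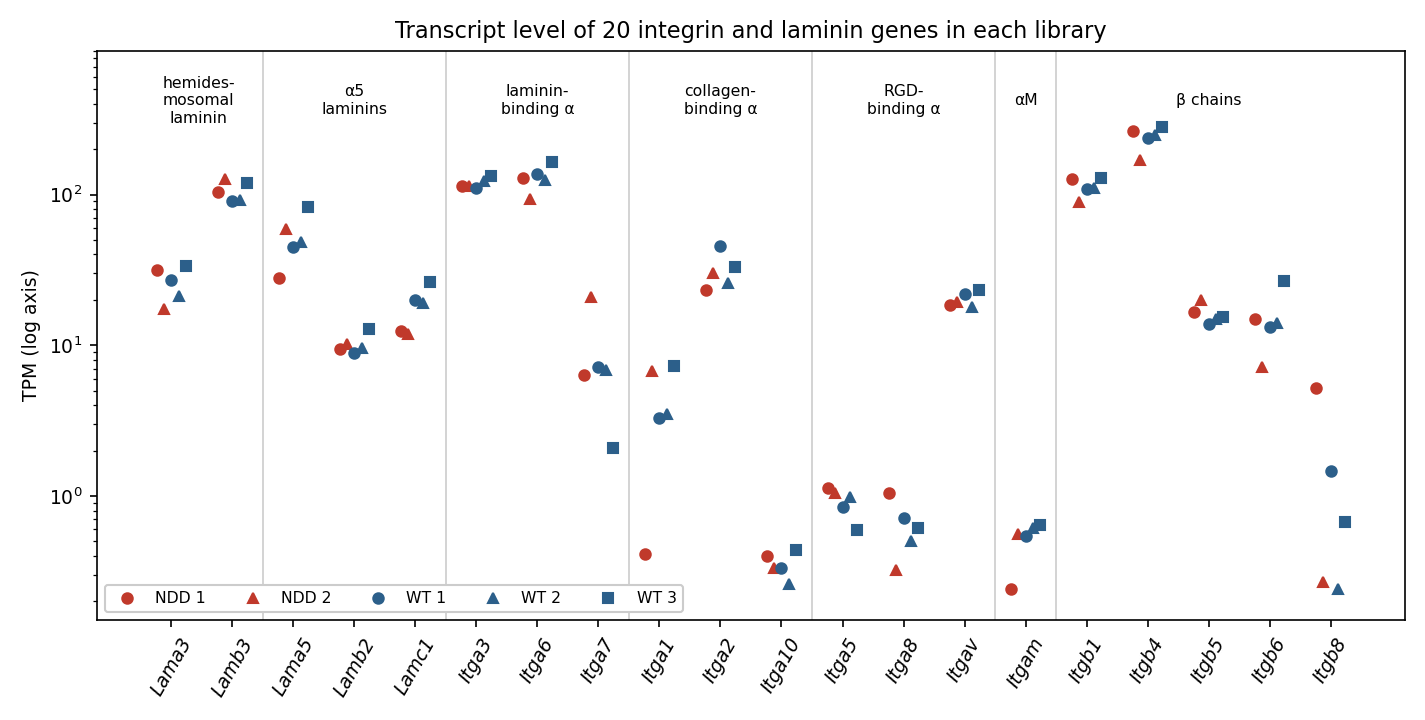
TPM (log axis) of the 20 tested genes in each library, with NDD in red, WT in blue and the replicate number given by the marker shape. The chains of α6β4 and α3β1 and the laminin chain Lamb3 lie at the top, and Itga1, Itga7 and Itgb8 spread the most between libraries of 1 genotype.

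The level of each chain was compared per length first. In WT the β4 chain Itgb4, which pairs only with α6 and carries the hemidesmosome, was the most abundant at 255 ± 21.7 TPM (SD, n = 3). It was followed by its partner Itga6 at 142 ± 20.3 TPM, by Itga3 at 122 ± 10.6 TPM and by the common β chain Itgb1 at 116 ± 10.7 TPM. The WT range of Itgb4 lay above that of Itga6, while Itga6, Itga3 and Itgb1 overlapped their neighbours in the order. Below them came Lamb3 (101 ± 16.6 TPM) and Lama5 (58.8 ± 21.2 TPM), then Itga2, Lama3, Lamc1, Itgav, Itgb6, Itgb5, Lamb2 and Itga7. Among these 14 genes, which are those with a mean of at least 5 TPM, 9 of the 13 neighbouring pairs in that order had overlapping WT libraries. The separate pairs were Itgb4 and Itga6, Lamb3 and Lama5, Itgb5 and Lamb2, and Lamb2 and Itga7. Itgb4 and Itgb1 together made up between 90.5% and 92.4% of the TPM of all β chains in the 5 libraries. Itga3 and Itga6 made up between 72.0% and 82.5% of all α chains, lowest in NDD replicate 2.

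The laminin β chains were transcribed at widely different levels. Lamb3, the β chain of the hemidesmosomal laminin, was at 90.5 to 126 TPM over the 5 libraries, Lamb2 at 8.92 to 12.9 TPM and Lamb1 at 0 to 0.08 TPM. Lamb1 is the β chain of laminin 511 and is usually credited to the mesenchyme as well as the epithelium. It had 2 and 3 counts in NDD and 0, 4 and 4 in WT, a level at which no difference was detectable. The sequence before 1 annotated start site of each is shown, since these genes stand at the top, the middle and the bottom of that range. The bases come from RefSeq (GRCm38.p6, the build that mm10 names) and run 5′ to 3′ on the gene's plus strand. They end 1 base before the first base that any annotated exon on the same strand covers. Exons on the other strand were not considered. The stretches for Lamb1 and Lamb2 lie before the whole gene in GENCODE M21. That for Lamb3 lies before a start within the gene, whose annotation begins upstream at chr1:193207699. Capitals mark TGGGAA, the core bound by RBPJ, the DNA-binding partner of Notch. Lamb3 is at chr1:193301744-193301992, Lamb2 at chr9:108479612-108479735 and Lamb1 at chr12:31265043-31265233.
Lamb3: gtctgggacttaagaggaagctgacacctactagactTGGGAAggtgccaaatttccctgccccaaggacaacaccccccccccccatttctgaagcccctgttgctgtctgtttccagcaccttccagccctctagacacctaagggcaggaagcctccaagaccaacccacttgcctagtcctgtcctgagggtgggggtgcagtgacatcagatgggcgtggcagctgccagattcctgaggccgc
Lamb2: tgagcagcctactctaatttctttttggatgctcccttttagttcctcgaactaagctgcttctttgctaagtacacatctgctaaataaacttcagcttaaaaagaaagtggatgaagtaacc
Lamb1: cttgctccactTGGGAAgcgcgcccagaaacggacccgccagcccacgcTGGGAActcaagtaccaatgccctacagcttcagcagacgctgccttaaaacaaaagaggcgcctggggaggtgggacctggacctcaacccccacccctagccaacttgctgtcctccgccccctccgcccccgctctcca
In the printed stretches the core was present once for Lamb3, at 2 positions for Lamb1 and not for Lamb2. A further match for Lamb3 lay at position -165 from its other RefSeq start, in the part not printed, so Lamb1 and Lamb3 each had 2 matches in all windows. Promoter windows (250 bases before to 50 after a start) were found for 23 of the 36 genes. TGGGAA on either strand was in the windows of 4 of these (Lamb1, Lamb3, Lama2 and Itga2b), in 5 of 26 windows, against 25.6% of 32851 windows of all genes. The AP-1 motif TGANTCA, searched on both strands, was in 3 of the 26 windows (Itga3, Itga9 and Itgax), against 7.81% of all windows. The 2 motifs overlapped nowhere in these genes. A match is a description of letters and not of binding.

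Neither Lama3 nor Lamb3, chains of the hemidesmosomal laminin, passed the test. The α chain Lama3 had 31.7 and 17.5 TPM in NDD and 27.0, 21.3 and 33.5 TPM in WT, with NDD replicate 2 the lowest and NDD replicate 1 the second highest. In edgeR NDD differed from WT by -0.13 log2 units (SE 0.27, adjusted p 0.832). The β chain Lamb3 had 104 and 126 TPM in NDD and 90.5, 92.6 and 120 TPM in WT, an edgeR log2 change of 0.22 (SE 0.18, adjusted p 0.587). Leaving out NDD replicate 2 gave 0.02, and leaving out NDD replicate 1 gave 0.39. The groups overlapped for both chains. In each of the 5 libraries Lamb3 was above Lama3.

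The chains of the α5 laminins, by contrast, included the gene with the lowest p among the members described here. Lamc1, the γ1 chain shared by laminins 511, 521 and most others, had 12.5 and 11.8 TPM in NDD and 20.1, 18.9 and 26.4 TPM in WT. Both NDD libraries lay below every WT library, and they differed by only 0.02 from each other on the log2 CPM scale. The log2 fold change was -0.82 (SE 0.17), which is 1.76-fold lower in NDD, with an unadjusted p of 0.00248 and an adjusted p of 0.231 in edgeR. In DESeq2 the log2 fold change was -0.82 (SE 0.20, adjusted p 0.00511). Its adjusted p ranged from 0.00511 to 0.429 over the other settings and from 0.0604 to 0.490 when 1 library was left out. The fold change kept its sign throughout, between -0.89 and -0.67. The gene is at chr1:153218922-153332786 on the minus strand in GENCODE M21, and 0.181% of its 31-base sequences occur in transcripts of another gene.

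The α5 chain Lama5, the partner of Lamc1 in both trimers, did not pass the test. Lama5 had 27.7 and 58.9 TPM in NDD and 44.7, 48.6 and 83.2 TPM in WT. NDD replicate 1 was the lowest library and NDD replicate 2 the second highest. NDD over WT came to -0.30 in log2 (SE 0.43; adjusted p of 0.751, edgeR), moving to -1.11 when NDD replicate 2 was left out and to 0.22 when NDD replicate 1 was. The β2 chain Lamb2 had 9.43 and 10.3 TPM in NDD and 8.92, 9.54 and 12.9 TPM in WT, an edgeR log2 change of -0.06 (SE 0.19, adjusted p 0.892). Of these 3 chains only Lamc1 had NDD libraries that lay apart from the WT libraries.

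**Figure D2:**
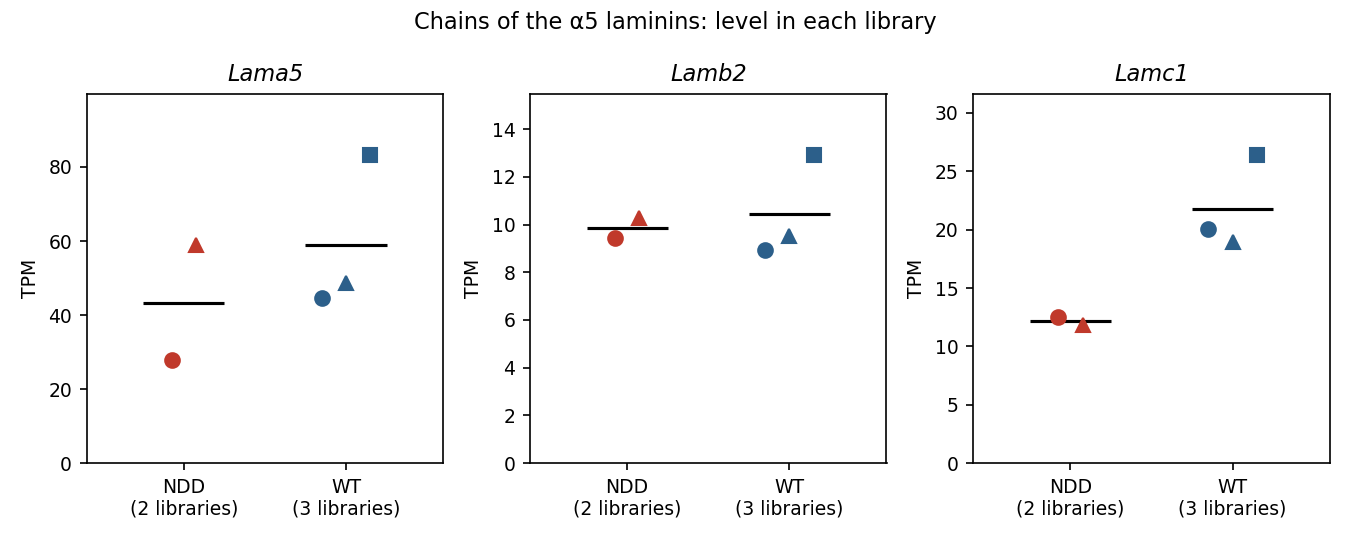
TPM of Lama5, Lamb2 and Lamc1 in each library (points, shaped by replicate number), with the arithmetic mean of each genotype as a line. The 2 NDD libraries lie below the 3 WT libraries for Lamc1 and overlap them for Lama5 and Lamb2.

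Among the α chains that bind these laminins, none passed the test, and Itga7 differed most between libraries. Itga6 had 129 and 93.5 TPM in NDD and 136, 125 and 164 TPM in WT, an edgeR log2 change of -0.34 (SE 0.18, adjusted p 0.479). Leaving out NDD replicate 2 gave -0.16, and leaving out NDD replicate 1 gave -0.53. Its groups did not overlap in CPM (highest NDD library 430.3, lowest WT library 440.02) and overlapped in TPM. Itga3 had 114 and 113 TPM in NDD and 111, 123 and 132 TPM in WT, an edgeR log2 change of -0.08 (SE 0.13, adjusted p 0.764). Itga7, a laminin receptor chain known best from muscle, had 6.31 and 21.02 TPM in NDD and 7.13, 6.87 and 2.08 TPM in WT. NDD replicate 2 was the highest and WT replicate 3 the lowest, and NDD replicate 1 fell amid the WT libraries. With edgeR the log2 change was 1.40 (SE 0.68, adjusted p 0.470) and 0.21 without NDD replicate 2. Krt20, a keratin of surface colonocytes and 1 of the 10 epithelial markers, was also highest in NDD replicate 2 (131 CPM) and lowest in WT replicate 3 (4.93 CPM). Of the other keratins among those markers, Krt8 was highest in NDD replicate 1, and Krt18 and Krt19 in WT replicate 2. Exons of Itga7 overlap those of Mettl7b on the other strand, which was also highest in NDD replicate 2 (141 CPM) and lowest in WT replicate 3 (21.2 CPM). The strand setting of the counting is not given in the sources used here, and the part of either gene in the Itga7 values was not tested.

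The β chains that complete these receptors did not pass the test. Itgb4 had 262 and 169 TPM in NDD and 237, 249 and 279 TPM in WT, with NDD replicate 2 the lowest. In edgeR NDD differed from WT by -0.08 log2 units (SE 0.16, adjusted p 0.820). On the TPM scale the estimate for Itgb4 was larger, at -0.27 with limma on log2(TPM + 1) (adjusted p 0.567). Itgb1 had 128 and 89.8 TPM in NDD and 109, 111 and 129 TPM in WT, again with NDD replicate 2 the lowest, and the change in edgeR was -0.08 in log2 (SE 0.16, adjusted p 0.817). Both chains thus spanned a wider range in NDD than in WT. The ratio of Itgb4 to Itgb1 was 2.06 and 1.88 in NDD and 2.18, 2.24 and 2.17 in WT on the TPM scale. The difference of the mean log2 ratios was -0.16 (exact two-sided permutation test, p = 0.2, the smallest that 2 libraries against 3 allow). On the CPM scale it was -0.0012 and the groups overlapped. A gene length shared by all libraries would cancel in this difference, so TPM and CPM differed here by more than a fixed length per gene.

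**Figure D3:**
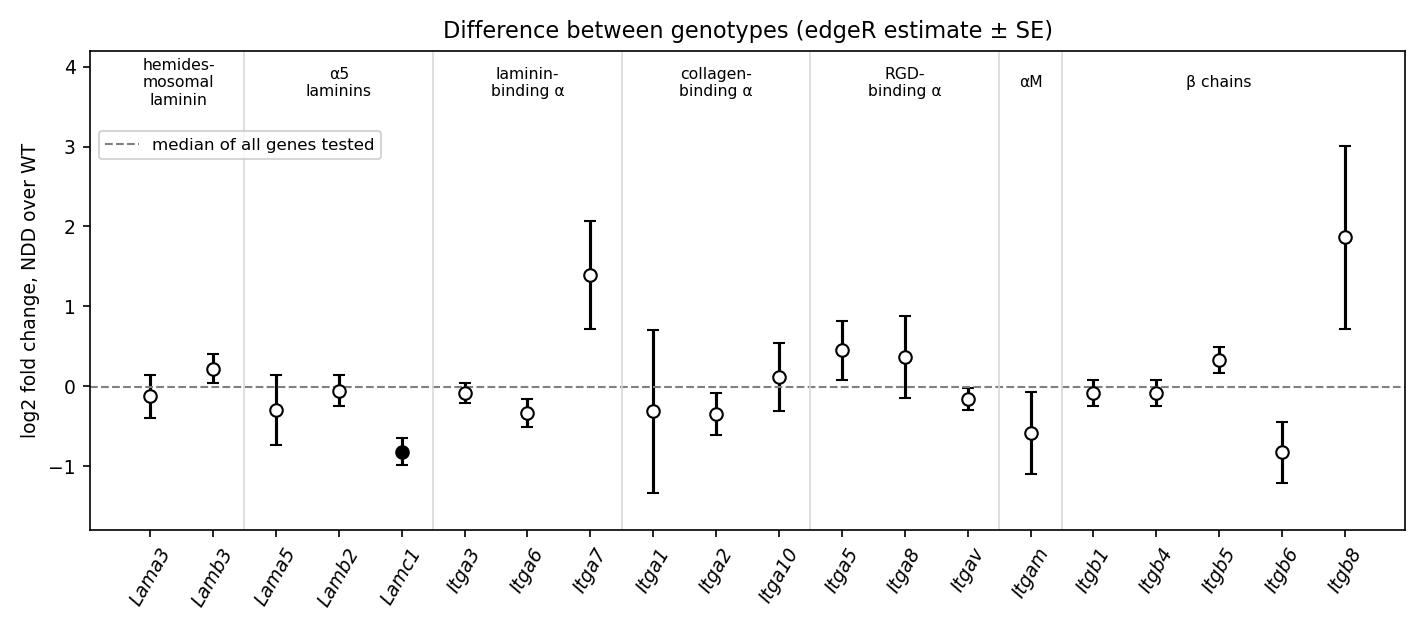
Log2 fold change of NDD over WT (edgeR) for the 20 tested genes, grouped by role. Bars are standard errors, the filled point marks an unadjusted p under 0.05 and the dashed line is the median of all genes tested. Lamc1 is the only filled point, and the largest estimates, those of Itgb8 and Itga7, carry wide errors.

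Itga2, Itgav, Itgb5 and Itgb6, chains of receptors of collagen or of RGD ligands, were lower in WT than Itga3, Itga6, Itgb1 and Itgb4. Itga2, the α chain of a collagen receptor of epithelia, had 23.4 and 30.1 TPM in NDD and 45.5, 25.9 and 32.8 TPM in WT, an edgeR log2 change of -0.35 (SE 0.27, adjusted p 0.567). This estimate was -0.59 without NDD replicate 2 and -0.10 without WT replicate 1. Its neighbour in the genome, Itga1, was singled out after its values were seen. It had 0.41 and 6.79 TPM in NDD and 3.29, 3.48 and 7.28 TPM in WT, so that NDD replicate 1 stood far below the other 4 libraries. In counts this was 30 in NDD replicate 1 and 219 to 598 in the others. The log2 fold change over both NDD libraries was -0.32 (SE 1.02, edgeR adjusted p 0.891). Itgav, the α chain of the RGD receptors αvβ5 and αvβ6, had 18.4 and 19.5 TPM in NDD and 21.8, 17.9 and 23.3 TPM in WT, an edgeR log2 change of -0.16 (SE 0.13, adjusted p 0.595).

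Of the 3 β chains that pair only with αv, Itgb5 and Itgb8 had estimates above 0 and Itgb6 below. Itgb5 had 16.6 and 19.8 TPM in NDD and 13.93, 15.04 and 15.45 TPM in WT, with both NDD libraries above all WT libraries. NDD over WT came to 0.33 in log2 (SE 0.16; adjusted p of 0.470, edgeR), and to 0.15 without NDD replicate 2. Itgb6, an epithelial chain that activates latent TGF-β with αv, had 14.8 and 7.18 TPM in NDD and 13.3, 14.1 and 26.7 TPM in WT. NDD over WT came to -0.83 in log2 (SE 0.38; adjusted p of 0.465, edgeR) with -0.45 when WT replicate 3 was left out and -1.28 when NDD replicate 1 was. Itgb8, which also activates latent TGF-β with αv, was singled out after its values were seen. It had 5.17 and 0.27 TPM in NDD and 1.46, 0.24 and 0.67 TPM in WT, and the high value was that of NDD replicate 1 alone (206 counts, against 9 to 48 in the others). With edgeR the log2 change was 1.86 (SE 1.15, adjusted p 0.506). Itga5, the α chain of the fibronectin receptor, also singled out after its values were seen, lay near 1 TPM, with 1.13 and 1.05 TPM in NDD and 0.85, 0.99 and 0.59 TPM in WT (log2 fold change 0.45, SE 0.37, edgeR adjusted p 0.581). Itga8 and Itga10 had mean levels below 1 TPM and log2 fold changes of 0.37 (SE 0.52) and 0.11 (SE 0.43).

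The remaining members were at or near the limit of detection. The filter left out 16 of the 36 genes, none of which passed 19 counts in any library. Of these, 9 had at most 3 counts in every library, and Lama4, Lamc3 and Itgal had 0 counts in all 5. A count of 0 allows up to 0.130 to 0.156 CPM in these libraries, for counting error only. Lama1, Lama2 and Lama4, the α chains of the embryonic, muscle and vascular laminins, had at most 5 counts. The leukocyte chains Itgal, Itgax, Itgb2, Itgb7 and Itgae, of which Itgae with Itgb7 marks intraepithelial lymphocytes, had at most 9 counts, and the pan-leukocyte gene Ptprc at most 2. Itga4, a lymphocyte chain, had at most 6 counts, Itgad at most 5, and Itga9 and Itga11 at most 2. Itgb3 and Itga2b, the platelet pair, had at most 2 and 19 counts. Itgam, a chain of myeloid cells, likewise singled out, passed the filter with 13 and 33 counts in NDD and 28, 37 and 39 in WT, while its obligate partner Itgb2 had at most 1. Of the 31-base sequences of Itgam, 68.1% occur in transcripts of another annotated gene, chiefly the overlapping Gm49368, and 31.8% of those of Itga10 occur in the overlapping Gm42957, so the values of both are uncertain.

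Genes that act with integrins and laminins were then read from the same fit. The 7 lists, written with earlier results of these data known, held 96 names, of which 94 were rows of the tables and 70 were tested. None was called by edgeR, against 0.0889% of the 13501, and DESeq2 called 5 (Col18a1, Cyr61, Fbln1, Mmp7 and Spp1), all lower in NDD, against 2.64%. At an unadjusted p under 0.05 there were 12, all lower in NDD, while over all genes 4.68% were lower and 6.49% higher at that level. Without WT replicate 3 there were 6 of 68, all lower, where 2.06% of all genes tested were lower and 3.08% higher. Without NDD replicate 1 there were 12 of 73 lower and 6 higher, where 17% of all genes tested were lower and 13.1% higher, so the share of lower genes was near that of all genes. The median log2 fold change of the 70 was -0.13.

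Of these lists, that of RGD and other matrix ligands had the most such genes. All 8 tested had a log2 fold change below 0, where 50.5% of all genes did, and 5 had an unadjusted p under 0.05. Fbln1, fibulin 1, a glycoprotein of basement membranes, had 1.73 and 1.23 TPM in NDD and 6.67, 7.61 and 8.69 TPM in WT. Each NDD library was below each WT library, and the log2 fold change of -2.36 (SE 0.25, 5.15-fold lower in NDD) had an edgeR adjusted p of 0.0541, just above the threshold. DESeq2 gave an adjusted p of 5.26e-12. Cyr61, a matricellular ligand of αv integrins, had 14.9 and 8.07 TPM in NDD and 26.2, 22.6 and 31.7 TPM in WT (log2 fold change -1.21, SE 0.27, edgeR adjusted p 0.284, DESeq2 adjusted p 0.00539). Mfge8, an RGD protein that bridges αv integrins to lipids, had 33.8 and 22.8 TPM in NDD and 37.7, 43.8 and 56.3 TPM in WT (log2 fold change -0.69, SE 0.23, edgeR adjusted p 0.418). Spp1, osteopontin, had 6 and 6 counts in NDD and 27, 59 and 410 in WT, and its log2 fold change moved from -4.70 to -2.86 without WT replicate 3 (with all libraries, edgeR adjusted p 0.394 and DESeq2 adjusted p 0.000545).

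**Figure D4:**
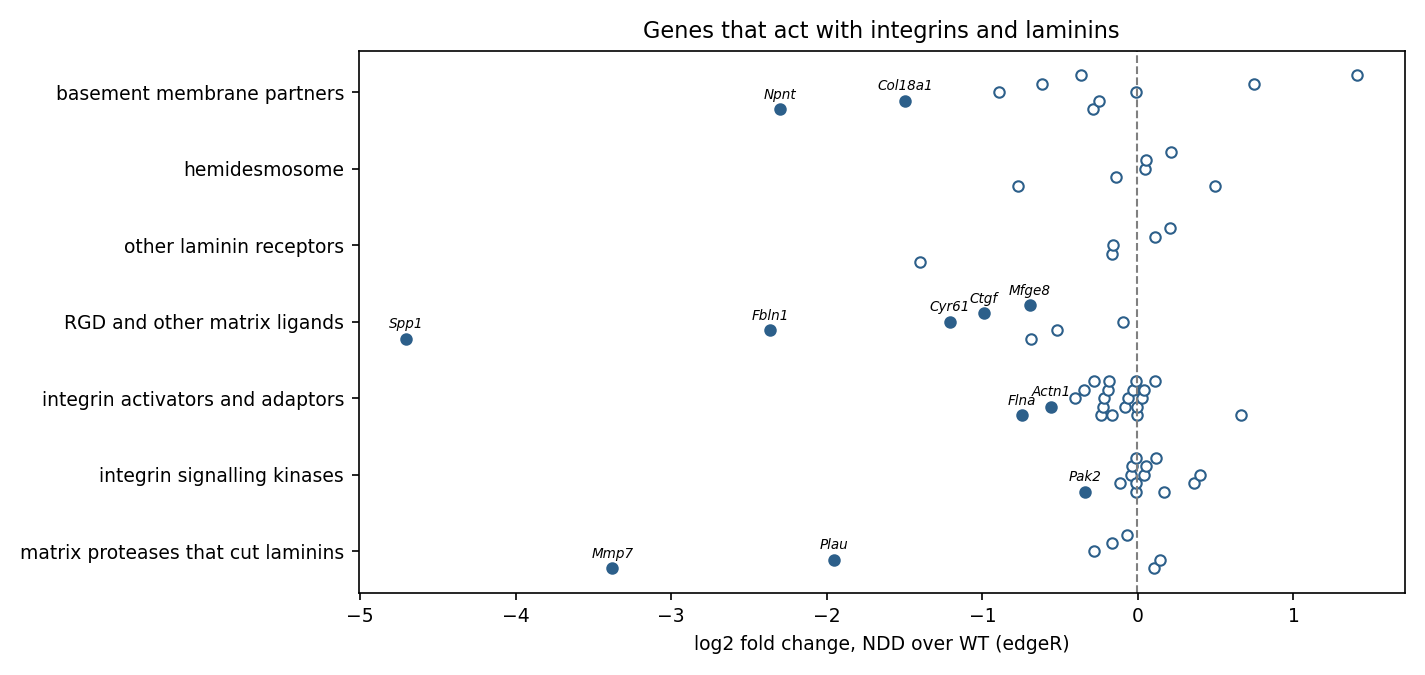
Log2 fold change of NDD over WT (edgeR) of each tested gene that acts with integrins or laminins, by list. Filled and named points had an unadjusted p under 0.05, and the dashed line is the median of all genes tested; all filled points lie to the left, from Spp1 at -4.70 to Pak2 at -0.34.

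The other lists held fewer genes at an unadjusted p under 0.05, a level that 11.2% of all genes tested reached. Among the 10 tested basement membrane partners, Col18a1, the collagen that releases endostatin, had 1.13 and 1.46 TPM in NDD and 3.55, 2.19 and 5.55 TPM in WT (log2 fold change -1.49, SE 0.42, edgeR adjusted p 0.381, DESeq2 adjusted p 0.0343). Npnt, nephronectin, the ligand of α8β1, had 27 and 29 counts in NDD and 43, 83 and 300 in WT, and its log2 fold change of -2.30 (edgeR adjusted p 0.437) was -1.21 without WT replicate 3. Flna and Actn1, which tie integrins to actin, were the 2 of 21 tested adaptors with an unadjusted p under 0.05, a smaller share than over all genes. Flna had 47.6 and 27.5 TPM in NDD and 56.6, 54.9 and 78.9 TPM in WT (log2 fold change -0.74, SE 0.26, edgeR adjusted p 0.437; -0.43 with NDD replicate 2 left out and -1.14 with NDD replicate 1 left out), and Actn1 had 140.2 and 101 TPM in NDD and 155, 160.01 and 225 TPM in WT, an edgeR log2 change of -0.56 (SE 0.21, adjusted p 0.437). Pak2, a kinase downstream of Rac1, was the 1 of 13 signalling genes, again a smaller share than over all genes. It had 45.2 and 42.2 TPM in NDD and 56.3, 54.5 and 57.5 TPM in WT (log2 fold change -0.34, SE 0.11, edgeR adjusted p 0.413). Of the 7 tested proteases, Mmp7 (7 and 19 counts in NDD, 67, 49 and 304 in WT, log2 fold change -3.38 and -2.23 without WT replicate 3, edgeR adjusted p 0.394, DESeq2 adjusted p 0.00571) and Plau (6 and 5 counts in NDD, 8, 19 and 39 in WT, edgeR adjusted p 0.437) were below that p. The 6 hemidesmosome genes and the 5 tested receptors of laminin other than integrins held none. Of these, Cd151, the tetraspanin bound to α3β1 and α6β4, had a log2 fold change of 0.05 (SE 0.14), and Plec, which links β4 to keratins, of 0.21 (SE 0.17).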

How the data were processed

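RNA from 5 colon spheroid libraries was sequenced after stranded mRNA library preparation, per the labels' protocols. Bowtie2, RSEM and the build mm10 are named in the submitters' processing notes, with no versions, and the gene annotation is not given in the sources used here. The authors deposited estimated counts per gene as whole numbers without normalization, and TPM scaled by them for length and to 1000000 per library. Every value column matched a sample title (0 were left out).

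The deposited counts of all 5 libraries were fitted with edgeR 4.0.16 (quasi-likelihood, robust prior, TMM factors, filterByExpr, R 4.3.3). P-values were adjusted by Benjamini and Hochberg over all 13501 genes and called under 0.05. Standard errors are |log2 fold change| over the square root of F. CPM uses TMM-scaled totals, except for marker sums and the limit for a count of 0, which is 3 counts at 95% confidence. The code was tested on simulated data. Alternatives were RLE factors, no filter, DESeq2 1.42.0, limma-voom and limma on log2(TPM + 1) or log2(TPM + 0.1) (limma 3.58.1), the replicate block and leaving out each library.

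Members and lists were chosen with earlier results of these data known. Of the genes the names take, 1 is not reported here; it stayed in the fits over all genes. Values in each library are given for members with a mean of at least 5 TPM or an unadjusted p under 0.05, and for up to 4 genes per list with the lowest unadjusted p under 0.05. Ctgf fell outside that limit. Itga1, Itga5, Itgam and Itgb8 were added after their values were seen. Counts in each library are also given for Lamb1, beside its sequence. Positions are from GENCODE M21 and promoters from RefSeq GRCm38.p6.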

Additional observations from a re-analysis of the deposited data

How the results depend on the processing

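The count of the described integrin and laminin genes called, 0, was also 0 in every other setting that uses all libraries except DESeq2, which called 1 (Lamc1). It was 0 in each fit that left out a WT library. The count at an unadjusted p under 0.05, 1 with all libraries, was 3 with DESeq2 and ranged from 1 to 5 when a library was left out (3 of 21 without NDD replicate 1, where 30.1% of all genes were at that level, and 5 of 20 without NDD replicate 2, where 7.34% were). Lamc1 was among them in every fit. The number of all genes called, 12, was 58 with no filter, 357 with DESeq2 and 24 with limma-voom. It ranged from 0 (without WT replicate 1, with 1211 genes at an unadjusted p under 0.05) to 1207 (without NDD replicate 1), and was 5 and 3 without WT replicates 2 and 3. In the fits without an NDD library the lone one is assumed to vary like WT. Companion genes called, 0 of 70, were 1 of 89 with no filter (Fbln1), against 0.302% of all genes tested. With DESeq2 they were 5 of 70, against 2.64%. When a library was left out they ranged from 0 to 8. The 8 came without NDD replicate 1, the fit in which the calls over all genes also rose to 1207. Nothing particular to the companion genes is therefore read from that rise. The integrin median, -0.08, ranged from -0.10 to 0.12 (without NDD replicate 2) and the laminin median, -0.13, from -0.24 to 0.04 (without NDD replicate 1) when a library was left out.

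Of the 14 members with a mean of at least 5 TPM, 13 kept their sign under the replicate block and all 14 under the other settings that use all libraries. When a library was left out, Itgb1 ranged from -0.30 to 0.12, Itgb4 from -0.31 to 0.13, Lama3 from -0.55 to 0.21, Lama5 from -1.11 to 0.22 and Lamb2 from -0.16 to 0.10 on the log2 scale. Without turning sign, Itga3 ranged from -0.15 to -0.04 and Itgav from -0.21 to -0.08. The log2 ratio difference of Itgb4 to Itgb1 ranged in those fits from -0.22 to -0.09.

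The labels do not say that a shared replicate number marks a litter, batch or day. For that reason no pairing was assumed. Across genes, departures from the genotype mean correlated at -0.0095 between the libraries numbered 1 and at 0.35 between those numbered 2. With only 2 NDD libraries, their departures from the NDD mean are exact opposites, so these correlations cannot decide whether the libraries are paired. Adding the replicate block raised the genes called to 33, with no member among them, and turned the log2 fold change of Lamb2 to 0.10. With 2 libraries against 3, exact tests cannot go below 0.2, and 16 of the 36 genes had too few counts to be tested.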

Other observations

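Itgb3bp, a centromere protein named for binding the β3 tail and no member of the integrin family, was singled out after its values were seen. It had 42 and 42 counts in NDD and 166, 187 and 121 counts in WT, so that both NDD libraries were below all WT libraries. The log2 fold change was -1.94 (SE 0.34, unadjusted p 0.00104, edgeR adjusted p 0.169), and Itgb3 itself had at most 2 counts.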
